A study of Elodea nuttallii and Chlamydomonas reinhardtii with 18 samples.

Results

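Carbonic anhydrases interconvert carbon dioxide and bicarbonate, and the transcripts of 7 such genes were followed in the green alga Chlamydomonas reinhardtii after 2 h in the River Olt. The genes are CAH1 (Cre04.g223100), CAH2 (Cre04.g223050), CAH3 (Cre09.g415700), CAH4 (Cre05.g248400), CAH5 (Cre05.g248450), CAH6 (Cre12.g485050) and CAH8 (Cre09.g405750), and all 7 are among the 13566 genes of the deposited table. They were selected by identifier, with earlier results of the same data known, so every site difference of these genes is given as a description and no p-value is printed for any of them. The deposited files pair the identifiers with no gene name. The symbols are those of the gene list, and neither symbol nor protein could be checked against these data.

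The series concerns mercury toxicity outdoors, by its title, and exposed this alga and a waterweed, Elodea nuttallii, at Babeni site 2, Babeni site 1 and Valcea, and the labels call Valcea the control for the alga. Only the alga is described here, with 3 libraries of whole cells per site. All 9 libraries came from cells grown to mid-exponential phase in TAP, an acetate medium, diluted 4-fold, so cultivation before exposure was the same at every site as far as the labels say. The labels state neither the strain nor how much mercury each site carried.

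Chlamydomonas takes up inorganic carbon through a carbon concentrating mechanism, in which bicarbonate is moved inward across several membranes and carbonic anhydrases turn it into carbon dioxide near Rubisco, the enzyme that fixes it. Several parts of this system are switched on when carbon dioxide is scarce, with CAH1, CAH4 and CAH5 among the classical examples. Carbonic anhydrases sit in different compartments. CAH1, CAH2 and CAH8 are assigned to the cell surface, CAH3 to the thylakoid lumen and CAH4 and CAH5 to mitochondria. CAH6 was first placed in the chloroplast stroma.

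The libraries held 10322089 to 14097458 reads (median 11608628). Values are normalised read counts (CPM with a separate scaling factor per library), so each is relative to a library's reads and is not a plain share of them. Their totals therefore differ between libraries. Lower levels in every cell and fewer cells with the transcript cannot be told apart. CPM is not divided by gene length, so levels are compared between sites and never between genes. Log2 differences are on the log2(CPM + 0.5) scale, which understates changes of low genes, and carry the standard error (SE) of a limma fit to the 9 libraries. This fit pools the spread within every site. A gene thus has the same SE in each comparison, which is not the spread of the 2 sites compared. A gene is said to have risen or fallen where the Benjamini-Hochberg adjusted p of that fit, over the 13556 genes tested, fell under 0.05 and the 2 site means on that scale stood 2-fold or more apart. All 7 genes passed the filter on low values. Libraries of Babeni site 1 were less alike than those of the other sites, with Pearson correlations of log2 values of 0.947 to 0.970, against 0.989 to 0.991 at Babeni site 2 and 0.985 to 0.993 at Valcea. The most abundant gene took 7.75% and 4.48% of reads in Valcea replicates 1 and 2 and 1.11% to 1.85% in the other libraries. The labels do not say whether libraries of a site came from separate cultures, so errors and tests measure only how far these libraries spread, which could be technical.

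At Babeni site 2 against Valcea the mitochondrial CAH4 and CAH5 fell about as far as any transcript in the table, the lumenal CAH3 and the surface CAH8 fell less, and CAH2 and CAH6 rose. CAH1 was low at both sites. Thus 4 of the 7 genes fell, beside 16.6% of all tested genes, and 2 rose, beside 19.6%. At Babeni site 1 against Valcea CAH1 rose and CAH5 fell, and the other 5 did not pass, where 6.07% of all genes rose and 2.48% fell. At Babeni site 2 against Babeni site 1 CAH1, CAH3, CAH4 and CAH5 fell, where 12.7% of all genes fell and 13.0% rose. None of the 7 rose there by limma, edgeR or DESeq2. CAH2 and CAH6 stood higher there and CAH8 lower, and these passed the adjusted p of the limma fit but lay under the 2-fold limit. Since the genes were chosen with these contrasts known, nothing is read from these counts. The comparisons share libraries, so they are not independent of each other.

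The median log2 difference of the 7 genes was -1.05 at Babeni site 2 against Valcea, beside -0.01 over all genes tested. It was -0.21 beside -0.01 at Babeni site 1 against Valcea, and -1.79 beside -0.03 between the Babeni sites.

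**Figure D1:**
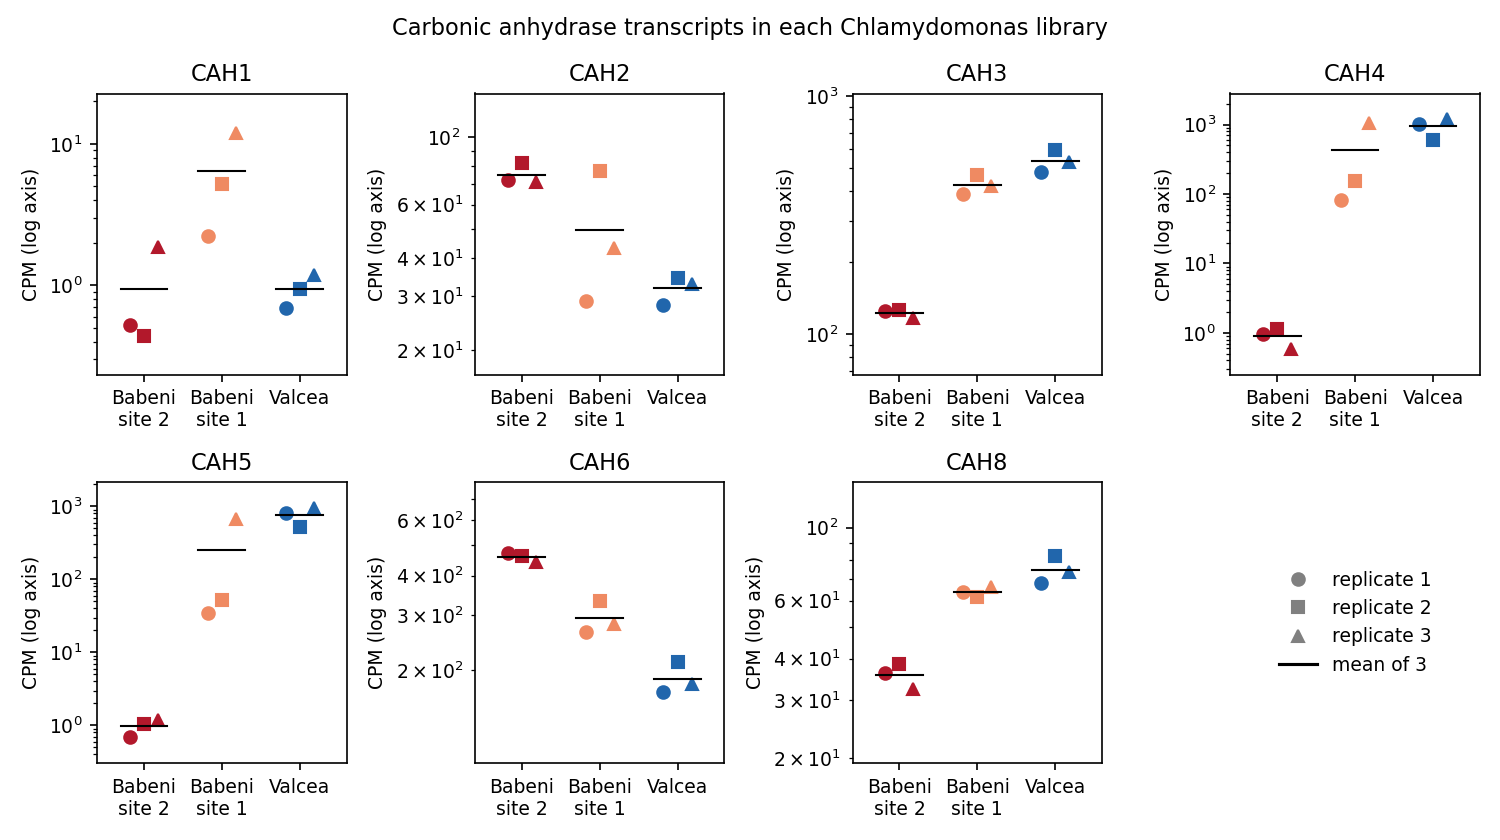
CPM of each carbonic anhydrase in each library, on log axes that differ between panels, with symbols for replicates and a line for the mean of 3 libraries per site. CAH4 and CAH5 stood near 1 CPM in every Babeni site 2 library and were widely spread at Babeni site 1.

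CAH4 and CAH5 are mitochondrial beta-type enzymes encoded by adjacent identifiers, and their coding sequences are known to be nearly identical. CAH4 had 0.959, 1.15 and 0.586 CPM in the Babeni site 2 libraries, 83.1, 156 and 1063 CPM in those of Babeni site 1, and 1030.3, 601 and 1195 CPM in those of Valcea, each in the order of replicates 1 to 3. The Babeni site 2 libraries lay below all others by a wide margin, and those of Babeni site 1 and Valcea overlapped through Babeni site 1 replicate 3. Means were 0.897 ± 0.285 CPM at Babeni site 2, 434 ± 546 CPM at Babeni site 1 and 942 ± 307 CPM at Valcea (SD, n = 3 each). CAH4 fell at Babeni site 2 against Valcea, where the log2 difference was -9.36 ± 0.68 (SE) and the ratio of means was 1051-fold. That SE includes the spread at Babeni site 1, which is not in this comparison. CAH4 spanned 3.67 log2 units there, against 0.60 at Babeni site 2 and 0.99 at Valcea. The low values rest on 6 to 13 reads per library at Babeni site 2, against 6366 to 16218 reads at Valcea. The lowest of them, 0.586 CPM in replicate 3, lay close to the 0.5 CPM added to every value before the log. The size of the log2 difference of CAH4 therefore depends on that added value. It was -8.295 with 2 CPM added and -9.87 with 0.1 CPM added, and CAH4 fell with either.

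CAH5 followed the same course. It had 0.698, 1.06 and 1.17 CPM in the Babeni site 2 libraries, 34.5, 51.8 and 662 CPM at Babeni site 1, and 801, 520.4 and 938 CPM at Valcea. As for CAH4, Babeni site 2 was apart from both other sites, and replicate 3 of Babeni site 1 lay among the Valcea libraries while replicates 1 and 2 lay far below them. Means were 0.975 ± 0.247 CPM at Babeni site 2, 249 ± 357 CPM at Babeni site 1 and 753 ± 213 CPM at Valcea (SD, n = 3 each). The log2 difference at Babeni site 2 against Valcea was -8.97 ± 0.80 (SE), a 772-fold ratio of means. CAH5 rested on 8 to 12 reads per library at Babeni site 2.

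Over all 13556 genes tested, CAH4 had the lowest log2 difference at Babeni site 2 against Valcea and CAH5 the second lowest. The third lowest was -8.70, and 5 genes in all lay at -8 or below. With an SE of 0.68 for CAH4 and 0.80 for CAH5, the order of the lowest 3 is not settled. Ranks are given for the scale with 0.5 CPM added only. The largest increase was 7.37. Between the Babeni sites CAH4 was again lowest at -7.45 ± 0.68 (SE) and CAH5 second at -6.19 ± 0.80 (SE), with -5.89 for the next gene. Without Babeni site 1 replicate 3 these differences were -6.38 and -4.87, and both genes fell under every alternative tried. In the authors' deposited table of Babeni site 2 against Valcea the log2 fold changes are -10.01 for CAH4 and -9.59 for CAH5.

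**Figure D2:**
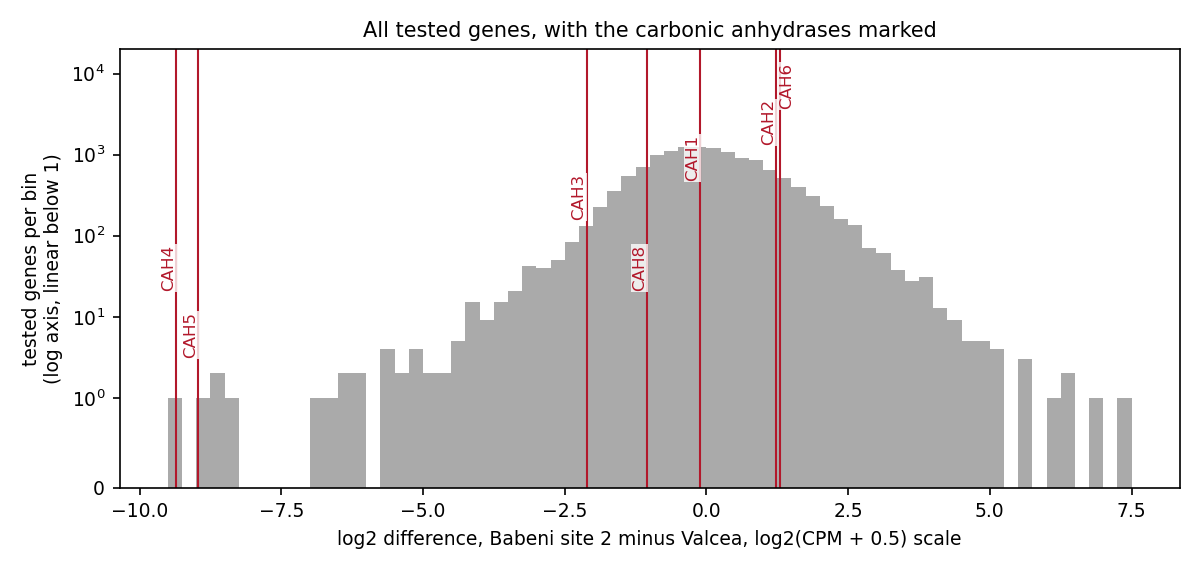
Number of tested genes per bin of log2 difference between Babeni site 2 and Valcea (0.25 wide, log axis that is linear below 1), with the 7 carbonic anhydrases as red lines. CAH4 at -9.36 and CAH5 at -8.97 lie at the left end, and the other 5 lie between -2.12 and 1.29.

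At Babeni site 1 against Valcea the mitochondrial pair depended on single libraries. CAH5 fell there, with a log2 difference of -2.78 ± 0.80 (SE), and CAH4 did not pass at -1.91 ± 0.68 (SE). The call of CAH5 used the spread pooled over all sites, and CAH5 did not pass with only these 2 sites fitted. The ratio of mean CPM was 3.02-fold lower for CAH5 and 2.17-fold lower for CAH4, and libraries of the 2 sites overlapped for both genes. Without Babeni site 1 replicate 3 both fell, with -2.98 for CAH4 and -4.10 for CAH5, and with any 1 of Babeni site 1 replicates 1 and 2 or Valcea replicates 1 and 3 left out neither passed. CAH4 without Babeni site 1 replicate 1 stood at -1.15. Neither gene passed in edgeR or DESeq2, in which the CAH5 log2 differences were -1.59 and -1.62. The authors' deposited table of this comparison lists both genes, with log2 fold changes of -1.12 for CAH4 and -1.59 for CAH5. The edgeR run here gave the same values after rounding, so the calls differ and the estimates do not. The reason was not tested.

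The spread of the pair at Babeni site 1 was among the widest in the table. The 3 libraries spanned 3.67 log2 units for CAH4, and 20 of the 13556 genes spanned more. They spanned 4.24 for CAH5, and 5 genes spanned more. The median span of all genes was 0.60. Within Babeni site 2 CAH4 spanned 0.60, against a median of 0.26, and within Valcea 0.99, against a median of 0.33. Set on the log2 distance from the Valcea mean (0%) to the Babeni site 2 mean (100%), the Babeni site 1 libraries lay at 36.7%, 27.0% and -2.48% for CAH4 and at 48.9%, 42.4% and 1.59% for CAH5, in the order of replicates 1 to 3. Over the 4914 genes that changed between Babeni site 2 and Valcea the median positions of these libraries were 31.8%, 32.1% and 23.2%. Replicate 3 thus lay nearest to Valcea by that median too, but by a smaller gap. Pearson correlations with the Valcea mean were 0.954, 0.947 and 0.951 in the same order of replicates, highest in replicate 1. The correlation with the Babeni site 2 mean was lowest in replicate 3, at 0.868. Which library lay nearest to Valcea thus depended on the measure. The part of such differences between libraries in the CAH4 and CAH5 values was not tested.

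**Figure D3:**
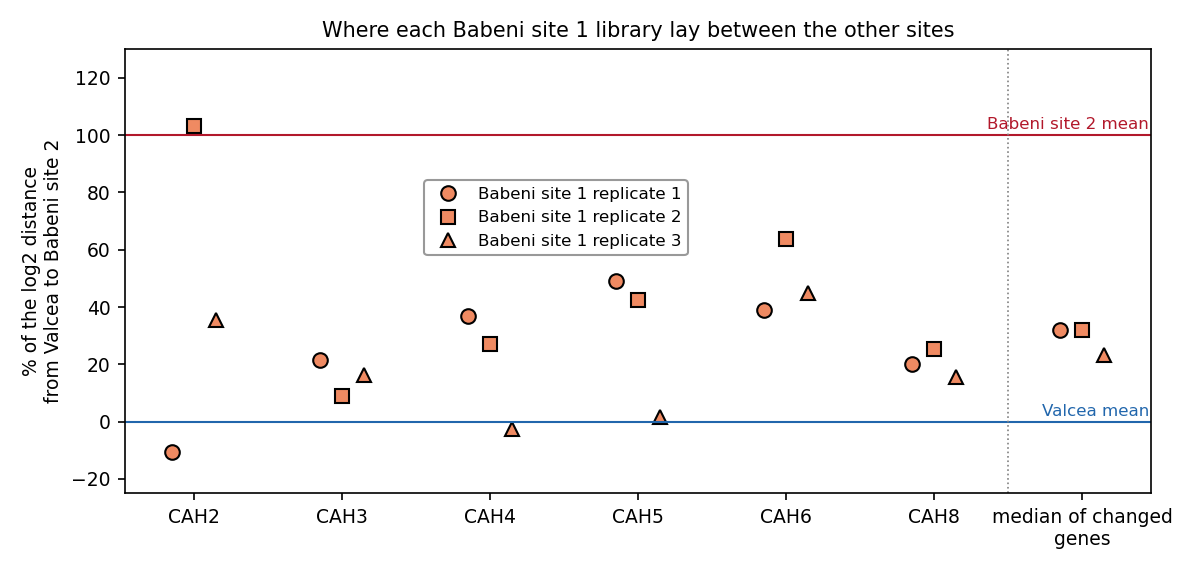
Position of each Babeni site 1 library on the log2 scale between the Valcea mean (0%) and the Babeni site 2 mean (100%), for 6 carbonic anhydrases and, at the right, as the median over the 4914 genes that changed between those sites. Replicate 3 lay at the Valcea level for CAH4 and CAH5, and CAH2 reached from -10.7% to 103%. CAH1 is left out because its means at the outer sites hardly differed.

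Reads of the pair may be split or lost because the coding sequences are so alike, and how reads with several matches were counted was not given in the sources used here. CAH5 held 42.1%, 48.0% and 66.7% of the summed CAH4 and CAH5 reads in the Babeni site 2 libraries, 29.3%, 24.9% and 38.4% at Babeni site 1, and 43.7%, 46.4% and 44.0% at Valcea. The shares at Babeni site 1 lay below those of Valcea in every library. The exact 95% Clopper-Pearson intervals were 27.2% to 31.5%, 23.3% to 26.7% and 37.7% to 39.1% at Babeni site 1, with 43.1% to 44.4%, 45.5% to 47.3% and 43.4% to 44.5% at Valcea. Those of Babeni site 2 rested on 18 to 25 reads and were 20.3% to 66.5%, 27.8% to 68.7% and 41.0% to 86.7%. Pooled over its 3 libraries, Babeni site 2 had a CAH5 share of 51.6% (38.6% to 64.5%), above the pooled 36.3% of Babeni site 1 (35.7% to 36.9%) on counting error. The pooled Babeni site 1 interval holds none of its 3 library shares, since replicate 3 gave 19774 reads, against 1745 and 2531 in replicates 1 and 2. Mean library shares were 52.3 ± 12.8% at Babeni site 2 and 30.9 ± 6.86% at Babeni site 1 (SD, n = 3 each). By library, only the interval of Babeni site 2 replicate 3 lay wholly above that of every Babeni site 1 library. All 3 intervals of Babeni site 2 overlapped those of Valcea, and no difference in the split from Valcea was detectable at this depth. These intervals cover counting error only. Summed as 1 feature, the pair had a log2 difference of -2.23 at Babeni site 1 against Valcea and passed. The sum was fitted only with all libraries, so how far this call depends on single libraries was not tested. The 19774 summed reads of Babeni site 1 replicate 3 lay within the 11876 to 28942 of the Valcea libraries.

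**Figure D4:**
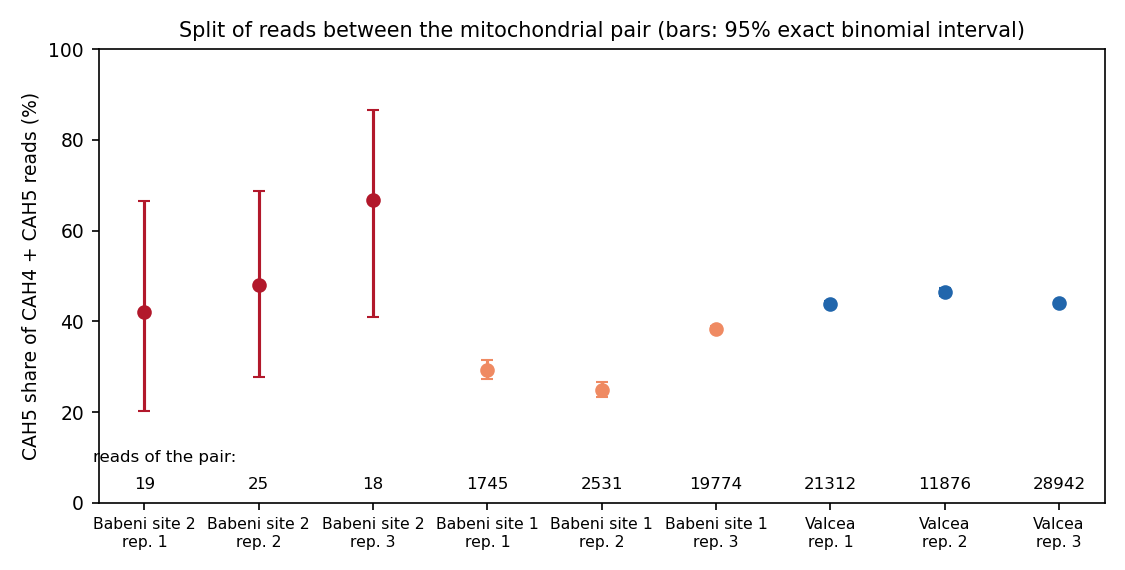
Share of CAH5 in the summed reads of CAH4 and CAH5 per library, with exact 95% binomial intervals and the summed reads printed along the base. The share was 24.9% to 38.4% at Babeni site 1 and 43.7% to 46.4% at Valcea, with wide intervals at Babeni site 2.

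The 7 genes together took 695 ± 24.4 CPM at Babeni site 2, 1521 ± 899 CPM at Babeni site 1 and 2525 ± 457 CPM at Valcea (SD, n = 3 each). CAH4 and CAH5 made up 0.23% to 0.31% of these reads in the Babeni site 2 libraries, 13.6% to 67.7% at Babeni site 1 and 54.9% to 72.2% at Valcea. At Babeni site 2 the reads of these 7 genes thus came nearly all from the other 5. These are shares of reads, which also depend on gene length, so they do not rank the genes by level. Other carbonic anhydrases were not counted.

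CAH3 is an alpha-type enzyme of the thylakoid lumen that cells need to grow on air levels of carbon dioxide. It had 125, 126 and 117 CPM in the Babeni site 2 libraries, 388, 468 and 420.0 CPM at Babeni site 1, and 479, 593 and 532 CPM at Valcea. The 3 sites did not overlap, Babeni site 2 being far lowest and Babeni site 1 just under Valcea. CAH3 fell at Babeni site 2 against Valcea, by 2.12 on the log2 scale (SE 0.13), and against Babeni site 1, by 1.79 (SE 0.13). At Babeni site 1 against Valcea its difference of -0.33 ± 0.13 (SE) did not pass. The authors' deposited tables list it for the first 2 of these comparisons, at -2.12 and -1.79, and not for the third. CAH3 was even within sites, with spans of 0.11 log2 units at Babeni site 2, 0.27 at Babeni site 1 and 0.31 at Valcea.

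CAH6 is a beta-type enzyme. It had 472, 462 and 443 CPM in the Babeni site 2 libraries, 265, 332 and 280.2 CPM at Babeni site 1, and 170.4, 213 and 181 CPM at Valcea. Its order of sites was the reverse of that of CAH3, again with no overlap between any 2 sites. CAH6 rose at Babeni site 2 against Valcea, with a log2 difference of 1.29 ± 0.14 (SE) and a 2.44-fold ratio of means. Babeni site 1 differed from Valcea by 0.64 ± 0.14 (SE) and Babeni site 2 from Babeni site 1 by 0.66 ± 0.14 (SE), both under the 2-fold limit. On the adjusted p alone, with no fold limit, CAH6 passed in both of these comparisons as well.

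CAH1 is the periplasmic enzyme best known for its induction when carbon dioxide is low, and CAH2 is its close relative on the adjacent identifier. CAH1 had 0.523, 0.440 and 1.85 CPM in the Babeni site 2 libraries, 2.22, 5.18 and 12.04 CPM at Babeni site 1, and 0.687, 0.944 and 1.18 CPM at Valcea. All Babeni site 1 libraries lay above those of the other sites, which overlapped each other. These are 5 to 19 reads per library at Babeni site 2, 33 to 138 at Babeni site 1 and 8 to 16 at Valcea. Against Valcea, CAH1 rose at Babeni site 1, with a log2 difference of 2.02 ± 0.50 (SE) and means of 6.48 ± 5.04 CPM against 0.937 ± 0.246 CPM (SD, n = 3 each), a 6.91-fold ratio of means. It fell by 2.14 (SE 0.50) at Babeni site 2 against Babeni site 1, and differed by -0.12 ± 0.50 (SE) between Babeni site 2 and Valcea.

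The rise of CAH1 at Babeni site 1 ended as a call without Valcea replicate 1, at 1.89, and a minimum of 5 CPM in 3 libraries removed the gene from the test. Its log2 difference was 1.47 with Babeni site 1 replicate 3 left out and 2.57 with replicate 1 of that site left out. The highest value of CAH1 was in Babeni site 1 replicate 3, the library in which CAH4 and CAH5 also stood highest of the 3. The authors' deposited tables list CAH1 with log2 fold changes of 2.74 at Babeni site 1 against Valcea and -2.79 between the Babeni sites.

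CAH2 had 72.1, 82.1 and 71.1 CPM in the Babeni site 2 libraries, 29.0, 77.1 and 43.1 CPM at Babeni site 1, and 28.1, 34.6 and 33.0 CPM at Valcea. Babeni site 2 lay above Valcea in every library, and Babeni site 1 overlapped both, with replicate 1 at the Valcea level and replicate 2 at that of Babeni site 2. CAH2 rose at Babeni site 2 against Valcea, with a log2 difference of 1.23 ± 0.27 (SE) and means of 75.1 ± 6.06 CPM against 31.9 ± 3.38 CPM (SD, n = 3 each). Its differences at Babeni site 1 against Valcea, 0.52 ± 0.27 (SE), and at Babeni site 2 against Babeni site 1, 0.70 ± 0.27 (SE), did not pass. Between the Babeni sites CAH2 rose without Babeni site 1 replicate 2, at 1.07. Within Babeni site 1 the libraries of CAH2 were thus in another order than those of CAH1 and the mitochondrial pair.

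CAH1 and CAH2 share much of their sequence, so some reads of one may be counted for the other. Summed as 1 feature they followed CAH2, which has most of the reads, with a log2 difference of 1.203 for Babeni site 2 over Valcea, 0.67 for Babeni site 1 over Valcea and 0.54 for Babeni site 2 over Babeni site 1.

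CAH8 is a beta-type enzyme placed at the cell surface. It had 36.1, 38.5 and 32.3 CPM in the Babeni site 2 libraries, 63.9, 61.5 and 66.1 CPM at Babeni site 1, and 67.8, 82.1 and 73.2 CPM at Valcea. The sites did not overlap, and Babeni site 1 was close under Valcea. CAH8 fell at Babeni site 2 against Valcea, with a log2 difference of -1.05 ± 0.13 (SE) and means of 35.6 ± 3.12 CPM against 74.4 ± 7.21 CPM (SD, n = 3 each). This lies just past the 2-fold limit, and the call ended without Babeni site 2 replicate 3, at -0.98, or without Valcea replicate 2, at -0.98. Babeni site 2 differed from Babeni site 1 by -0.84 ± 0.13 (SE), which passed on adjusted p alone but lay under the 2-fold limit. Babeni site 1 differed from Valcea by -0.21 ± 0.13 (SE), which did not pass.

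**Figure D5:**
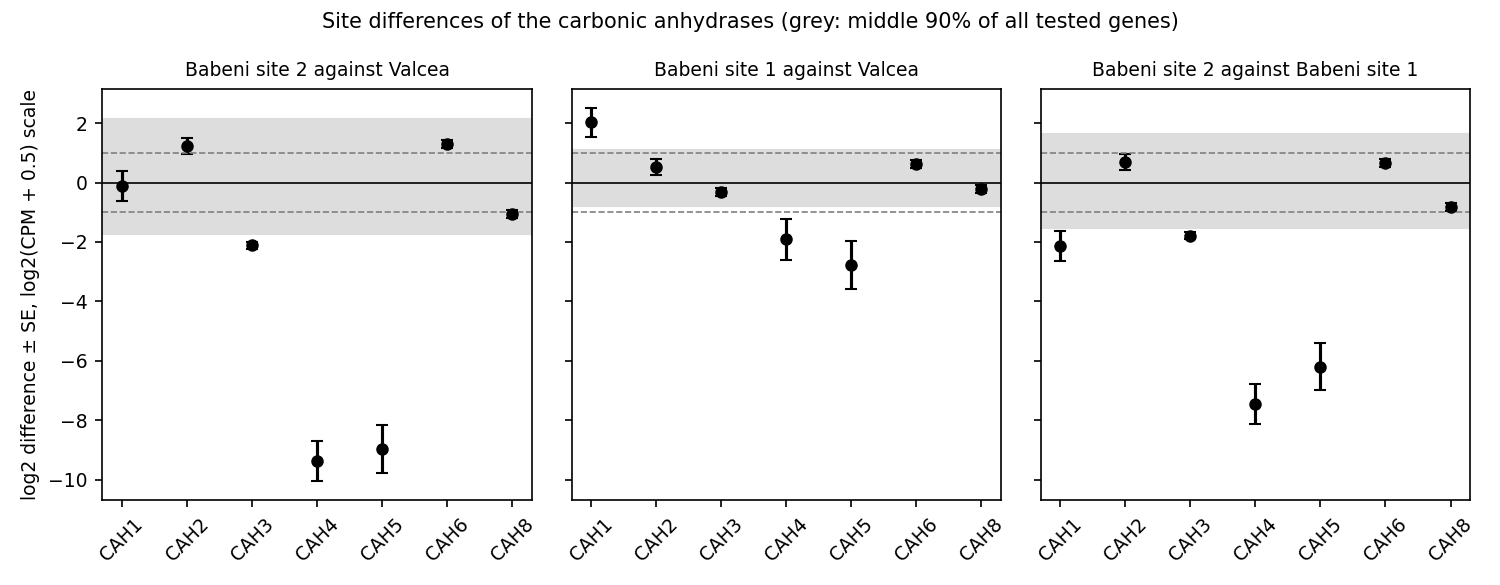
Log2 difference with its SE for the 7 genes in the 3 comparisons of sites, with dashed lines at the 2-fold limit and the middle 90% of all tested genes in grey. CAH4 and CAH5 lie below the band in every comparison, and farthest below it where Babeni site 2 is compared. CAH3 lies below it in both comparisons of Babeni site 2. CAH1 lies above it at Babeni site 1 against Valcea and below it between the Babeni sites.

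Libraries of Babeni site 2 did not overlap with those of Valcea for 6 of the 7 genes, beside 75.1% of all genes tested. For Babeni site 1 against Valcea the count was 4 of 7, beside 37.1%, and for Babeni site 2 against Babeni site 1 it was 6 of 7, beside 57.9%. Such separation was common in the table.

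Across the 9 libraries the patterns of the genes fell into a group that was lowest at Babeni site 2 (CAH3, CAH4, CAH5 and CAH8), a pair that was highest there (CAH2 and CAH6) and CAH1. Pearson correlations of log2(CPM + 0.5) were 0.94 to 0.99 within the first group, 0.90 between CAH2 and CAH6, and at most 0.39 between CAH1 and any other member. High values were common among genes averaging at least 5 CPM. From 1156 genes (for CAH5) to 1397 (for CAH3) exceeded 0.9 with a member of the first group. With CAH6 1034 did, and CAH2 ranked 1043 in likeness to it. The 9 libraries come from 3 sites, so these values reflect the site means first, and they are given as a description. CAH4 and CAH5 had a correlation of 0.990, and among 9817 genes averaging at least 5 CPM CAH5 ranked 18 in likeness to CAH4 and CAH4 ranked 15 in likeness to CAH5. The nearest to CAH4 was Cre06.g309600 (r = 0.996), which fell to 16.9 ± 0.211 CPM at Babeni site 2, against 72.2 ± 4.75 CPM at Valcea. The nearest to CAH5 was Cre12.g541200 (r = 0.997), which fell to 7.76 ± 0.668 CPM at Babeni site 2, against 44.1 ± 4.63 CPM at Valcea. Both moved by far less than the pair, since a correlation takes no account of size. The nearest to CAH2 was Cre12.g488450 (r = 0.981), which rose to 632 ± 8.80 CPM at Babeni site 2, against 115 ± 24.4 CPM at Valcea. The nearest to CAH6 was Cre12.g496100 (r = 0.997), which rose to 72.3 ± 2.62 CPM at Babeni site 2, against 24.2 ± 3.49 CPM at Valcea (SD, n = 3 each throughout). The files give no name for any of these 4 identifiers.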

How the data were processed

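Per the labels, mRNA libraries were made with a stranded kit from total RNA. Per the submitters' processing notes the tools were edgeR 3.4.2, HTSeq 0.5.3p9, TopHat2 2.0.11 and BWA 0.7.10, with no roles stated. Genome build and annotation are not given there. The authors deposited a normalised signal per gene, titled edgeR CPM, with a separate scaling factor per library. The design was planned for plain CPM, and the same test was kept. Per the file headers, the authors' comparison tables hold log2 fold changes, p-values and FDR, and their titles limit them to genes past a false discovery rate and a fold threshold.

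Values divided by the value of 1 read were within 0.01 of a whole number for 100% of genes in every library, which gave reads. limma 3.58.1 (R 4.3.3, trend in the prior variance, no covariates) was fitted to log2(CPM + 0.5) of the 13556 genes that reached 1 CPM in 3 or more of the 9 libraries. The fit was also run on simulated data with the same spread at every site. Babeni site 1 libraries spread more than the others, so that run does not bear on calls at that site. edgeR 4.0.16 and DESeq2 1.42.0 were run on recovered reads. Members, lists and rules were chosen with earlier results of these data known. Named genes were the 7 members and the genes with the highest correlation to each, of which 2 that fell and 2 that rose are named, a choice made after their values were seen. Planned lists of other carbonic anhydrases and of inorganic carbon transporters were not counted, since no table pairing symbols with identifiers was at hand, and no sequence is shown for the same reason. Alternatives were other pseudocounts, filters, scalings and fits, each library left out, and sums of adjacent genes.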

Additional observations from a re-analysis of the deposited data

How the results depend on the processing

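Of the 7 genes' site differences, those of CAH3, CAH4 and CAH5 between Babeni site 2 and either other site, and the rises of CAH2 and CAH6 over Valcea at Babeni site 2, kept direction and call under every alternative in which each was tested alone. So did the fall of CAH1 at Babeni site 2 against Babeni site 1, though a minimum of 5 CPM left CAH1 untested. Over all alternatives 362 values kept direction and call, 9 passed that had not, 11 no longer passed and 5 changed sign. The 5 were all of CAH1: when summed with CAH2, 0.54 between the Babeni sites and 1.203 between Babeni site 2 and Valcea, and 0.065, 0.13 and 0.0041 between Babeni site 2 and Valcea without Babeni site 2 replicate 1, Babeni site 2 replicate 2 or Valcea replicate 3. Leaving out each library in turn gave -0.54 to 0.13 there, against -0.12 with all libraries. At Babeni site 1 against Valcea the number of the 7 that fell was 0 (1 as reported) with only 2 sites fitted, in edgeR and in DESeq2, where 1 member was lower at an unadjusted p under 0.05, and 2 with median centring or the replicate block. It was 0 to 2 with 1 library left out. The number that rose there was 2 on adjusted p alone, 0 with a minimum of 5 CPM, and 0 to 1 with 1 library left out. Between the Babeni sites it was 2 on adjusted p alone and 0 to 1 with 1 library left out (0 as reported).

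Over all genes, adjusted p alone gave 4277 rising and 4261 falling for Babeni site 2 over Valcea, 1884 rising and 1345 falling for Babeni site 1 over Valcea, and 3376 rising and 3598 falling between the Babeni sites. On recovered reads edgeR called 2870 rising and 2478 falling, 1010 rising and 333 falling, and 1813 rising and 2010 falling in these comparisons, each within 1.5 times the limma count. A pseudocount of 2 gave 492 rising and 219 falling at Babeni site 1 against Valcea, and 1 library left out gave 266 to 518 falling there, the highest without Babeni site 1 replicate 3. The cause of these shifts was not tested. Deviations of same-numbered libraries correlated by -0.01 to 0.24 and of others by -0.20 to 0.09. At Babeni site 1 against Valcea the same-numbered values were 0.06, 0.24 and 0.08, all positive, and the others ran from -0.20 to 0.09. These values do not settle whether replicate numbers pair the libraries of those sites. The replicate block changed no other call of the 7 than that of CAH4 at Babeni site 1. The planned list counts were not run. Depth limits CAH1 everywhere and CAH4 and CAH5 at Babeni site 2.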

Other observations

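Identifiers next to the members in the table were looked at after the values of the members were seen. The identifier before CAH4 averaged 69.6 ± 6.77 CPM at Babeni site 2, 107 ± 36.3 CPM at Babeni site 1 and 144 ± 5.04 CPM at Valcea, and fell at Babeni site 2 against Valcea with a log2 difference of -1.05 ± 0.22 (SE). The identifier after CAH5 averaged 28.8 ± 3.08, 33.5 ± 3.13 and 30.9 ± 3.01 CPM in the same order of sites, with a log2 difference of -0.10 ± 0.15 (SE) that did not pass (SD, n = 3 each). The identifier before CAH2 and the one after CAH1 had log2 differences of 0.91 ± 0.28 and 0.48 ± 0.25 (SE) at Babeni site 2 against Valcea and did not pass. The identifier after CAH6 rose with 1.37 ± 0.20 (SE), and the one before it, at 0.98 ± 0.15 (SE), did not pass. The identifier after CAH8 fell with -1.82 ± 0.15 (SE), a larger fall than that of CAH8 itself, and the one before it, at -0.55 ± 0.22 (SE), did not pass. Neither neighbour of CAH3 passed, with 0.65 ± 0.16 (SE) for the one before it, opposite in sign to CAH3, and -0.21 ± 0.25 (SE) for the one after.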
